A study of Homo sapiens with 18 samples.

Results

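Gene expression after 8 h of etoposide was compared with that after 4 h in HEK293 cells whose p65 was the wild-type form. The 3 arrays of cells treated for 8 h were set against the 3 arrays of cells treated for 4 h. All genes with a probe detected above background (detection p under 0.05) on at least 3 of the 18 arrays of the series were tested, which gave 12055 of the 20046 genes named on the array (22161 of 47231 probes were kept, and 16005 of these carried 1 gene symbol). HEK293 is a human embryonic kidney line. In every sample the cells' own p65 (the RELA product) had been silenced with siRNA, and an HA-tagged p65 that the siRNA does not recognise had been delivered by lentivirus, as HA-p65wt or as HA-p65S547A. Each line was left untreated or was given etoposide for 4 h or 8 h, with 3 arrays per group. The submitters describe 3 independent experiments. The dose is not given in the sources used here, no group kept the cells' own p65 unsilenced, and no group received vehicle for 4 h or 8 h, so time in culture and time with etoposide cannot be told apart.

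NF-kB is a family of dimeric transcription factors, of which p65 is the subunit that carries a strong activation domain. Inhibitors of the IkB type hold it in the cytoplasm until a kinase complex marks them for destruction, and the genes it then switches on include those for its own inhibitors and precursor subunits. Etoposide traps topoisomerase II on cut DNA, and the breaks start both a p53 and checkpoint response and a signal from the nucleus to NF-kB. Immediate early genes are transcribed within minutes of a stimulus and usually decay quickly, whereas the transcripts of mitotic genes follow the passage of cells through the cycle.

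The arrays were alike in quality, with 35.8% to 39.2% of probes detected and median intensities from 94.7 to 122. Log2 levels of tested genes correlated at 0.985 to 0.989 among arrays of 1 wild-type treated group (6 pairs) and at 0.974 to 0.980 between the 4 h and the 8 h arrays (9 pairs). Of 11 genes associated with HEK293, 10 were tested and all 10 were detected on a wild-type treated array, while 2 of them fell between 4 h and 8 h (20% called, against 13.4% of all tested genes): the neurofilament gene NEFL by 1.26 (limma adjusted p = 0.000103) and the cadherin gene CDH2 by 0.67 (adjusted p = 0.00112). None of 8 endothelial markers was tested, nor were 5 of 9 blood-cell, 3 of 8 fibroblast and 6 of 7 epithelial markers, and none of the tested members of these 4 other lists was called between 4 h and 8 h. Of the tested ones, 4 of 4 blood-cell, 4 of 5 fibroblast and 1 of 1 epithelial markers were also detected on a wild-type treated array. In bulk RNA, fewer cells of a type and less RNA per cell cannot be told apart.

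Between 4 h and 8 h, 976 genes rose, which is 8.1% of the tested genes, and 641 fell, which is 5.32%, by limma with Benjamini-Hochberg adjustment at 0.05 over all genes (1617 called in all, 13.4%). At least 2-fold differences were held by 77 of the genes that rose (0.639%) and 43 of those that fell (0.357%). The 3 arrays at 8 h all lay above the 3 at 4 h for 2194 genes (18.2%) and all below for 1753 (14.5%). The median over all genes was 0.01 on the log2 scale. This split depended on the scaling between arrays: quantile normalization gave 60.4% of calls higher, scaling to the median of all probes gave 92.6% (1640 higher and 131 lower, with an all-gene median of 0.17), and scaling to the median of the 12527 probes detected on all arrays gave 46.0% (843 higher and 988 lower, with an all-gene median of -0.09). Leaving out 4 h replicate 1 lowered the counts to 558 higher and 378 lower.

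Each gene was then placed in a time class from its calls against the untreated arrays at 4 h (753 higher, 6.25%, and 503 lower, 4.17%) and at 8 h (1994 higher, 16.5%, and 1589 lower, 13.2%, or 3583 genes in all, 29.7%) together with its call between the times. These 3 comparisons share arrays, so the classes describe shapes and are not separate evidence. Transient genes were called at 4 h, moved back significantly by 8 h and were no longer called in the same direction at 8 h. There were 43 that were higher at 4 h (0.357% of the tested genes, median log2 change 0.64 at 4 h and -0.06 at 8 h) and 55 that were lower (0.456%, medians -0.69 and 0.00). Another 8 higher (0.0664%) and 10 lower genes (0.083%) had partly returned, being called in the same direction at both times with a significant step back.

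Sustained genes, called in the same direction at both times with no call between them, were more numerous, with 421 higher (3.49%) and 300 lower (2.49%). For 274 and 195 of these the 95% interval of the difference between 8 h and 4 h stayed within 1.5-fold, and the others may have moved further than that. Growing genes moved further in the direction taken at 4 h. They numbered 214 higher (1.78%, median 0.66 at 4 h and 1.35 at 8 h) and 69 lower (0.572%, medians -0.62 and -1.41). Late genes were called at 8 h and between the times but not at 4 h, and they were the most numerous of these classes, with 574 higher (4.76%) and 409 lower (3.39%). The remaining 9952 genes (82.6%) had no class, among them 1570 called at 8 h alone and 136 called at 4 h alone, with no call between the times.

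**Figure D1:**
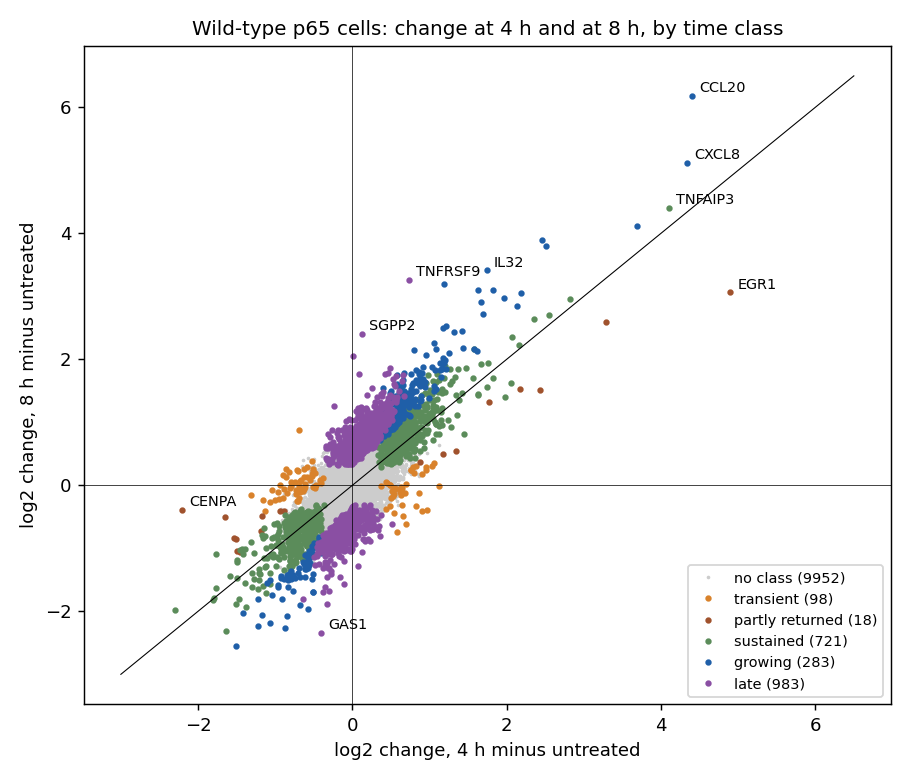
Log2 change of each of the 12055 tested genes in wild-type p65 cells at 4 h (horizontal) and at 8 h (vertical) of etoposide against the same untreated arrays. Colours give the time class with its number of genes, and the diagonal marks equal change at both times. CCL20 and TNFRSF9 lie above the diagonal, TNFAIP3 close to it, EGR1 below it, and CENPA is lower than untreated at both times but less so at 8 h.

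Among 16 tested NF-kB subunits and inhibitors, 6 rose between 4 h and 8 h (37.5% called, against 13.4% of all genes) and none fell, with a median of 0.42 beside 0.01 for all genes. They were 3 subunit genes (NFKB1, NFKB2 and RELB) and 3 genes of inhibitors or IkB-like proteins (BCL3, NFKBIB and TNIP1). With any 1 treated array left out, 4 or 5 rose. NFKB1, which encodes a DNA-binding subunit made from a precursor, was at log2 levels of 10.32, 10.19 and 10.19 on the untreated arrays, 10.68, 10.45 and 10.75 at 4 h and 11.90, 11.70 and 11.71 at 8 h. The 3 groups did not overlap, and most of the step came after 4 h. The difference between the times was 1.14 ± 0.12 (log2, SE, n = 3 arrays per group), a 2.21-fold rise with a limma adjusted p of 3.02e-05. NFKB2, the precursor subunit of the non-canonical pathway, rose by 1.35 ± 0.18 (adjusted p = 0.000237), and RELB, its usual partner, rose by 1.31 ± 0.21 (adjusted p = 0.00102). RELB was not detected on the untreated arrays, so its excess over untreated was at least 1.65-fold at 4 h and at least 4.09-fold at 8 h.

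Among the inhibitors and IkB-like proteins, BCL3, a nuclear IkB protein that joins NF-kB dimers on DNA, rose by 0.71 (adjusted p = 0.00675) after a change of 0.87 at 4 h. NFKBIB, a cytoplasmic IkB, rose by 0.52 (adjusted p = 0.0385) and TNIP1, a partner of TNFAIP3, by 0.54 (adjusted p = 0.0171), and neither was called at 4 h. These 3 are named to complete the count, after their values were seen. NFKBIA and TNFAIP3 were in the sustained class. NFKBIA, the IkB protein that returns NF-kB to the cytoplasm, was at 9.13, 9.30 and 9.59 untreated, 12.06, 12.36 and 12.09 at 4 h, and 12.45, 12.19 and 12.24 at 8 h. The 2 treated groups overlapped and lay far above the untreated arrays. The difference between the times was 0.13 (95% interval -0.20 to 0.45, adjusted p = 0.665), beside a change of 2.83 at 4 h against untreated. TNFAIP3, a ubiquitin-editing inhibitor of the pathway, had a change of 4.11 at 4 h and of 4.40 at 8 h, and the 0.29 between them was not called (95% interval -0.01 to 0.60, adjusted p = 0.20). CD83, a surface protein of activated cells and an NF-kB target, also stayed in the sustained class with 2.54 at 4 h and 2.71 at 8 h. RELA itself was at 7.43, 7.97 and 7.99 untreated, 9.38, 9.43 and 9.48 at 4 h and 9.19, 9.25 and 9.23 at 8 h. Its 8 h arrays lay below its 4 h arrays, but the difference of -0.20 was not called (adjusted p = 0.417), and whether the probe reads the silenced transcript, the supplied one or both was not tested.

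Cytokine and chemokine transcripts moved in opposite directions between the times. Of 12 tested members, 4 rose and 2 fell (50% called, against 13.4% of all genes), with a median of 0.04. With any 1 treated array left out, 3 or 4 rose and 0 to 2 fell, with 0 without 4 h replicate 1 and 1 without 4 h replicate 2 or 3 or 8 h replicate 1. CCL20, a chemokine for lymphocytes and dendritic cells, was at 6.73, 6.17 and 6.55 untreated, 10.99, 10.80 and 10.85 at 4 h and 12.70, 12.52 and 12.77 at 8 h. It stepped up at each time with no overlap, and the second step was 1.78 ± 0.17 (3.45-fold, limma adjusted p = 9.42e-06). IL32, a proinflammatory cytokine, rose by 1.67 ± 0.19 after a change of 1.74 at 4 h (adjusted p = 3.85e-05). CXCL8, a neutrophil attractant, was at 10.72, 10.60 and 10.60 at 4 h and 11.28, 11.44 and 11.55 at 8 h. All 3 arrays at 8 h exceeded all 3 at 4 h, by 0.78 ± 0.19 (adjusted p = 0.0119), beside 4.34 already reached at 4 h. TNF, which was not detected on the untreated arrays and so exceeded them at least 9.38-fold at 4 h and at least 12.7-fold at 8 h, had a further 0.43 ± 0.13 between the times (adjusted p = 0.0362). That call was lost under 9 of 18 other settings, including without 4 h replicate 1 or 2 or any 8 h replicate, with an adjusted p of 0.00732 to 0.129 over all of them.

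CXCL1 and CXCL2, neighbours of CXCL8 in function as neutrophil attractants, went the other way. CXCL1 was at 7.92, 7.77 and 7.97 at 4 h and 6.63, 7.49 and 7.44 at 8 h, and CXCL2 at 6.65, 5.86 and 6.12 against 5.38, 5.63 and 5.23. In both, every 8 h array lay below every 4 h array, and in CXCL1 8 h replicate 1 was far lower than the other 8 h arrays. They fell by 0.70 (adjusted p = 0.0373) and by 0.80 (adjusted p = 0.0100), and both remained above the untreated arrays, where neither was detected (at least 3.96-fold and 1.16-fold at 8 h). The CXCL1 call was lost under 8 of 18 other settings, including without any 4 h replicate or 8 h replicate 1 (adjusted p 0.0163 to 0.185 over the settings), and that of CXCL2 without 4 h replicate 1 (0.0539).

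The 2 largest rises of the 12055 tested genes were in the list of adhesion molecules and other known NF-kB targets. In that list 6 of 24 tested members rose and 1 fell (29.2% called, against 13.4% of all genes, median 0.19). The 1 that fell was not called when any 1 of the 6 treated arrays was left out. TNFRSF9, a co-stimulatory receptor of T cells also known as 4-1BB, was at 5.21, 4.84 and 5.80 untreated, 6.31, 5.52 and 6.21 at 4 h and 8.62, 8.33 and 8.69 at 8 h. The untreated and 4 h arrays overlapped, and the 8 h arrays stood clear of both. The rise between the times was 2.53 ± 0.28 (5.79-fold, adjusted p = 3.35e-05). SGPP2, a phosphatase of sphingosine 1-phosphate, was at 6.04, 5.82 and 6.23 at 4 h and 8.45, 8.17 and 8.30 at 8 h, a rise of 2.28 ± 0.19 (4.84-fold, adjusted p = 2.99e-06). Its 4 h arrays did not stand apart from the untreated ones at 6.02, 5.57 and 6.13. PI3, the elastase inhibitor elafin, rose by 1.29 ± 0.13 (adjusted p = 1.30e-05) from a level that was already at least 3.46-fold above untreated at 4 h.

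TNFRSF9 and SGPP2 were the late genes with the largest rises, and their promoters are shown as examples of that class for this reason alone. The sequences run 5′ to 3′ from 250 bases before to 50 after the transcript start, from RefSeq on GRCh38.p14, at chr1:7940790-7941089 on the minus strand and chr2:222423738-222424037 on the plus strand. Capitals mark matches, on either strand, to the spellings searched: a kB site (GGG and TTTCC with any 2 bases between them), the AP-1 site TGACTCA, the cell cycle element CHR as TTTGAA, and the CCAAT box. Also searched were the E2F site as TTTCGCG, the core of a cAMP response element as TGACG, the TATA box as TATAAA, and the CArG box by its usual pattern. No spelling contains another. A match is a match of letters only.
TNFRSF9: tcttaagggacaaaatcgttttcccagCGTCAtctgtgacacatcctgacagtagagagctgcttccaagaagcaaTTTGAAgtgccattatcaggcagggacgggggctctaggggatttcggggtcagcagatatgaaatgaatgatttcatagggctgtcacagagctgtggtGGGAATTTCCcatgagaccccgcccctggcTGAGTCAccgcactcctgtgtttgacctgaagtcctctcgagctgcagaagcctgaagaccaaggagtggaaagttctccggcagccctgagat
SGPP2: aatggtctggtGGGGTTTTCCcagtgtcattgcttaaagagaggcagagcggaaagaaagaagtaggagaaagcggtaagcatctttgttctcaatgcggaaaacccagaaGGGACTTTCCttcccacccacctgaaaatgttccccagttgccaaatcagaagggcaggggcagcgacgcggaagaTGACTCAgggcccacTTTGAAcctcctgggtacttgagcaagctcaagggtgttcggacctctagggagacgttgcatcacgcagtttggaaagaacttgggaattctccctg
The TNFRSF9 window held 1 kB, 1 AP-1, 1 CHR and 1 cAMP response core spelling, and the SGPP2 window 2 kB, 1 AP-1 and 1 CHR spellings. The kB spelling occurred in 2.14% of the 9653 tested genes with a promoter in the table. Among higher classes it occurred in 6.18% of 178 growing, 3.71% of 485 late, 3.05% of 361 sustained and 3.57% of 28 transient genes. Among lower classes it occurred in 3.45% of 58 growing, 1.52% of 328 late, 2.02% of 247 sustained and 0.0% of 45 transient genes. The partly returned classes, higher and lower, had only 7 and 8 promoters, with 28.6% and 0.0%. The kB spelling occurred in 35.7% of the 14 listed subunits and inhibitors and in 21.7% of the 23 listed adhesion and other targets, lists of known NF-kB targets.

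The adhesion molecules SELE (E-selectin) and VCAM1, best known from activated endothelium, rose by their brightest probes but not by all probes. SELE was at 7.32, 7.53 and 7.02 at 4 h and 8.69, 8.75 and 8.71 at 8 h, a rise of 1.43 ± 0.19 (adjusted p = 0.000248), while its other, dimmer probe gave -0.48. VCAM1 was at 4.45, 4.55 and 4.68 at 4 h, where it was detected on 1 of 3 arrays, and at 6.11, 6.15 and 6.49 at 8 h. That rise was 1.69 ± 0.17 (adjusted p = 1.34e-05), and 2 other, dimmer probes gave 0.19 and 0.16. PLA2G4C, a membrane-bound phospholipase, rose by 2.05 ± 0.23, and SH2D3C, a signalling adaptor, by 2.01 ± 0.19. Their adjusted p-values were 3.85e-05 and 8.79e-06. Of the kinases and adaptors upstream of NF-kB, 2 of 21 tested members rose and none fell (9.52% called, against 13.4% of all genes), and 4 rose with scaling to the median of all probes: RIPK2, a kinase of innate immune receptors, rose by 0.70 ± 0.14 (adjusted p = 0.00447), and BIRC2, a ubiquitin ligase, by 0.53 ± 0.12, a call that was lost when its probes were averaged (adjusted p = 0.080).

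**Figure D2:**
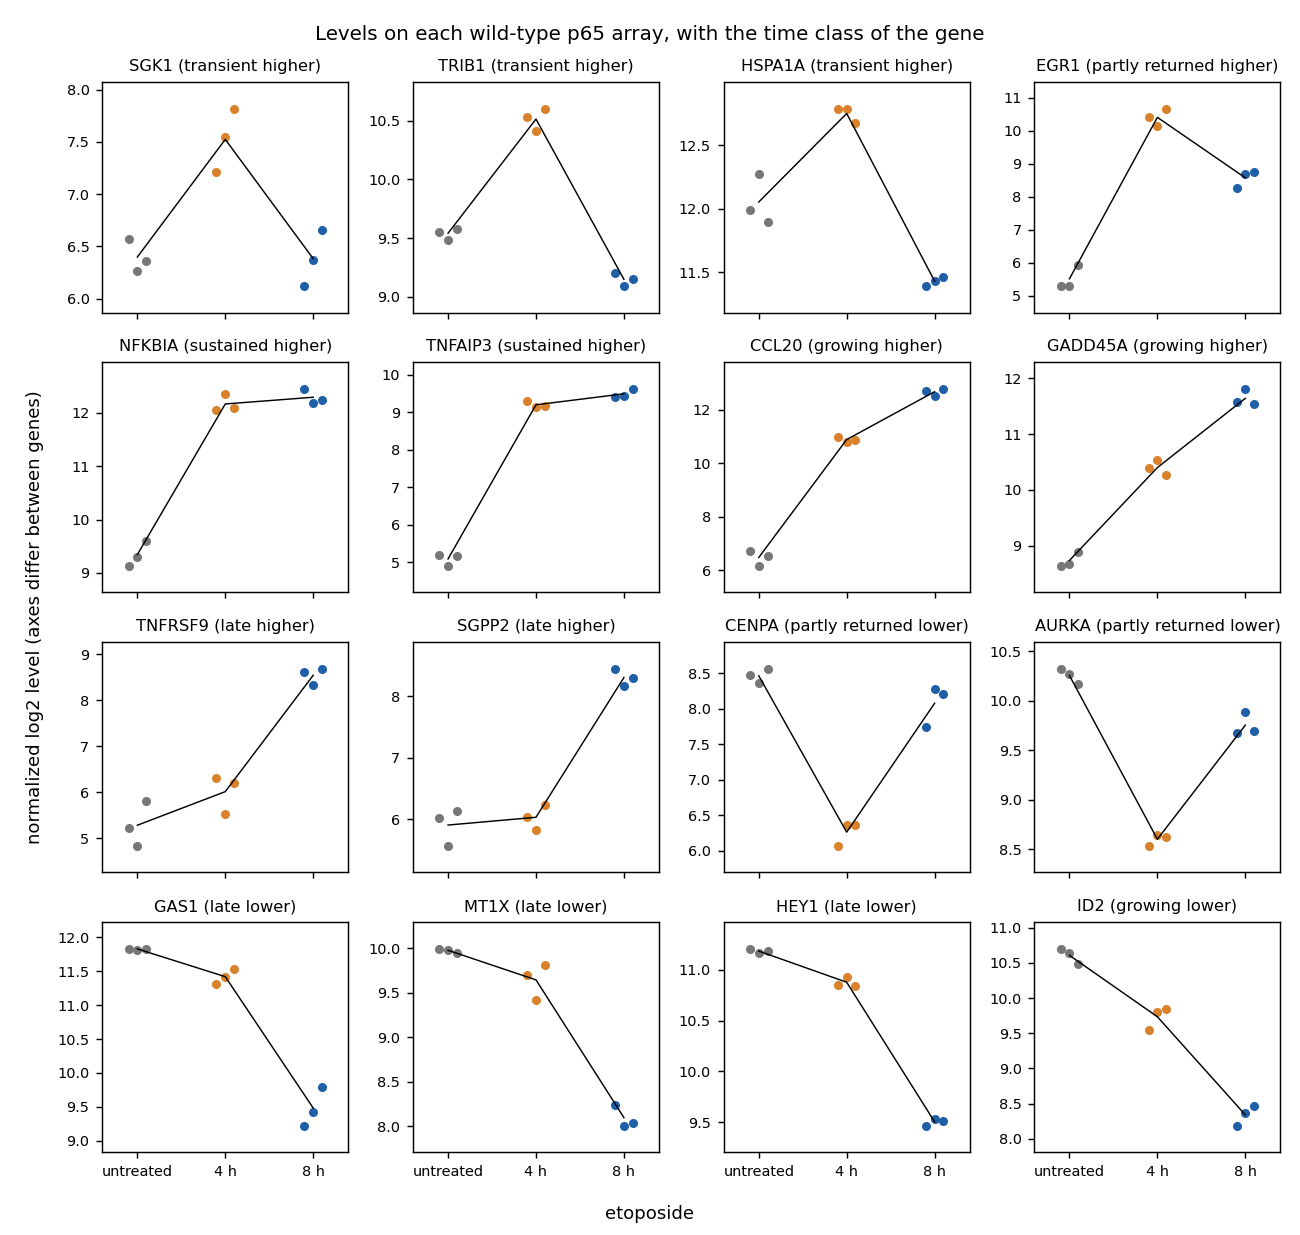
Normalized log2 level of 16 genes on each of the 9 wild-type p65 arrays (points, 3 per group), with lines joining group means and the time class in each panel title. SGK1, TRIB1 and HSPA1A were back at or below the untreated level by 8 h. NFKBIA and TNFAIP3 were not called between 4 h and 8 h, and CCL20 and GADD45A rose again. TNFRSF9 and SGPP2 were called higher between 4 h and 8 h but not at 4 h. GAS1, MT1X and HEY1 fell mainly between 4 h and 8 h.

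Some immediate early genes declined between the times. Of 16 tested transcription factors of this kind, 4 fell between the times and none rose (5.32% of all genes fell), and of 17 other immediate early genes, 7 fell and none rose. The 7 became 4 without 4 h replicate 2 or 3 or 8 h replicate 1. The medians of these lists were -0.08 and -0.19 with quantile normalization and turned to 0.08 and 0.07 with scaling to the median of all probes, so the counts describe particular members. EGR1, a zinc-finger factor, was at 5.29, 5.29 and 5.94 untreated, 10.42, 10.14 and 10.66 at 4 h and 8.26, 8.69 and 8.76 at 8 h. It fell by 1.83 ± 0.23 (log2, to 0.280 of the 4 h level, adjusted p = 0.000124), and its 8 h arrays were still above every untreated array. IER3, an early response gene linked to survival, fell by 0.92 after a change of 2.43 at 4 h (adjusted p = 0.00116). DUSP1, the phosphatase that ends p38 and JNK signals, was at 11.02, 11.47 and 11.49 at 4 h and 10.42, 10.82 and 10.81 at 8 h, and fell by 0.64 (adjusted p = 0.0188), a call lost with scaling to the median of all probes and without 4 h replicate 2 or 3 or 8 h replicate 1 (adjusted p up to 0.153). FOS was detected on 1 array in the 4 h group and on none at 8 h or untreated, and its difference of -0.52 was not called (adjusted p = 0.127).

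Other members were fully transient, or fell without a call at 4 h. SGK1, a kinase of the AGC family that controls ion channels, was at 6.57, 6.27 and 6.36 untreated, 7.21, 7.55 and 7.82 at 4 h and 6.12, 6.37 and 6.66 at 8 h. The 8 h and untreated arrays overlapped, and the fall from 4 h was 1.14 in size (log2 difference -1.14 ± 0.17, adjusted p = 0.000531). RHOB, a small GTPase known to respond to DNA damage, fell by 0.73 (adjusted p = 0.000782), and CCN1, a matrix protein, by 0.70 (adjusted p = 0.0365, lost without any 1 of the 6 wild-type treated arrays, adjusted p up to 0.158). TRIB1, a pseudokinase that directs proteins to degradation, is in neither list, and it crossed below the untreated level. TRIB1 was at 9.56, 9.49 and 9.58 untreated, 10.53, 10.41 and 10.60 at 4 h and 9.21, 9.09 and 9.15 at 8 h. All 3 groups were separate, with the 8 h group lowest, and the log2 difference between the times was -1.36 ± 0.12 (adjusted p = 3.86e-06). KLF4, a Kruppel-like factor listed with the early genes, was not called at 4 h (-0.16) and fell by 1.30 afterwards (adjusted p = 0.000183), and MYC, the growth regulator, fell by 0.74 (adjusted p = 0.00204).

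The promoters of SGK1 (chr6:134318063-134318362, minus strand) and RHOB (chr2:20446824-20447123, plus strand), the transient genes of largest change at 4 h with an entry to show, are given in the same form, with the same spellings in capitals.
SGK1: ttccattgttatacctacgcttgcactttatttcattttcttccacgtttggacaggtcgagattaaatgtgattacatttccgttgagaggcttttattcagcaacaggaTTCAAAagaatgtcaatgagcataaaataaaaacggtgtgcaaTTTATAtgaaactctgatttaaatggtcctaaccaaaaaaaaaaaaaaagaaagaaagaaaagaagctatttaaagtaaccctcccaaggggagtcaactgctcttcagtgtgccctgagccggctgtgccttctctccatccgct
RHOB: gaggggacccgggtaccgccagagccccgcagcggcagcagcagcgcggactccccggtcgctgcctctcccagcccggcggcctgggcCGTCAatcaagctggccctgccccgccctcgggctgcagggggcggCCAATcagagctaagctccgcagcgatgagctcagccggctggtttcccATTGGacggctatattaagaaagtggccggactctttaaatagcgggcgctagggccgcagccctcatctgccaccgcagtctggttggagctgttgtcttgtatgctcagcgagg
Neither window held the kB or the AP-1 spelling. Among transient higher genes, of which 28 of 43 had an entry, 21.4% held the TATA spelling, against 6.18% of all tested genes with a promoter, and 7.14% held the AP-1 spelling, against 2.96%.

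Of 15 heat shock proteins and co-chaperones, 5 fell between 4 h and 8 h and none rose (33.3% called, against 13.4% of all genes, median -0.16). Of the 5 that fell, 2 were transient and 3 late. HSPA1A, an inducible HSP70, was at 11.99, 12.27 and 11.90 untreated, 12.78, 12.78 and 12.68 at 4 h and 11.39, 11.43 and 11.47 at 8 h. It was called higher at 4 h (0.70) and called lower at 8 h (-0.62), with a log2 difference of -1.32 ± 0.12 between the times (adjusted p = 5.86e-06). HSPA1B gave -1.31, but it is a near-identical copy of HSPA1A and probes may read both. HSPA6, another HSP70, fell by 1.16 with 1 probe, while its other kept probe gave 0.20. In all, 6 genes were called higher at 4 h and lower at 8 h against untreated, and 2, the mitotic kinesin KIF18A and the survivin gene BIRC5, were called lower at 4 h and higher at 8 h.

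Many genes of G2 phase and mitosis were low at 4 h and higher at 8 h. Of 44 tested, 27 were called lower at 4 h against untreated (4.17% of all genes), 24 rose between 4 h and 8 h (8.1% of all genes) and none fell, with a median of 0.45 and 40 of 44 above 0. CENPA, the histone variant that marks centromeres, was at 8.47, 8.36 and 8.56 untreated, 6.07, 6.36 and 6.36 at 4 h and 7.74, 8.28 and 8.20 at 8 h. The 8 h arrays came close to the untreated arrays but stayed below them. CENPA rose by 1.81 ± 0.14 (3.52-fold, adjusted p = 2.52e-06), and its other probe gave 1.76. AURKA, a spindle kinase, was at 8.54, 8.64 and 8.63 at 4 h and 9.68, 9.89 and 9.70 at 8 h, a rise of 1.15 ± 0.11 (adjusted p = 1.27e-05). It remained below the untreated arrays, at 10.32, 10.27 and 10.17. CCNB1, the mitotic cyclin B, rose by 0.67 ± 0.12 (adjusted p = 0.00179) and was still -0.85 from untreated at 8 h.

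The mitotic genes did not all move alike. By class, 9 were transient lower, 6 had partly returned, 8 were sustained lower and 4 were late higher. PLK1, the polo-like kinase of mitotic entry, was at 6.37, 6.69 and 6.67 at 4 h and 6.20, 6.96 and 6.98 at 8 h, against 8.20, 8.29 and 8.55 untreated. Its treated groups overlapped, and the difference of 0.14 was not called (95% interval -0.40 to 0.67, adjusted p = 0.791). HJURP, the chaperone that loads CENPA, did not differ detectably at 4 h (0.07) and then rose by 1.16 ± 0.14 (adjusted p = 8.07e-05), to 9.14, 9.41 and 9.69 from 8.13, 8.31 and 8.34. KIF18A was at 6.09, 6.83 and 6.46 at 4 h and 8.04, 8.06 and 8.01 at 8 h, where it passed the untreated arrays at 7.40, 6.62 and 7.44, and rose by 1.57 ± 0.21 (adjusted p = 0.000224). G2E3, a ubiquitin ligase named for its G2/M expression, rose by 1.15 ± 0.17 (adjusted p = 0.000566) and was transient lower. The CHR spelling was found in 65.7% and the CCAAT spelling in 80.0% of the 35 listed G2/M promoters, against 10.1% and 37.5% of all tested genes, and CHR in 31.1% of the 45 transient lower promoters. CHR and CCAAT elements are known from mitotic promoters, so this describes the kind of gene in the list.

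The list for G1/S and DNA replication held 35 tested genes, of which 10 rose and 2 fell between the times (34.3% called, against 13.4% of all genes, median 0.22). With 1 treated array left out, 5 to 7 rose and 1 fell: 5 rose without 4 h replicate 1 or 8 h replicate 3, and 6 without 4 h replicate 3 or 8 h replicate 1 or 2. With scaling to the probes detected on all arrays, 6 rose and 2 fell, and with scaling to the median of all probes 11 rose and none fell. At 4 h, 10 of the 35 were called higher than untreated and none lower. E2F2, an activator of S-phase genes, was at 9.24, 9.55 and 9.38 untreated, 10.16, 10.29 and 10.40 at 4 h and 11.10, 10.90 and 11.06 at 8 h. The groups were ordered in time with no overlap, and the rise after 4 h was 0.74 ± 0.14 (adjusted p = 0.00305). RBL1, a pocket protein that restrains E2F, rose by 0.90 ± 0.24 (adjusted p = 0.0208, lost without 4 h replicate 1 or 8 h replicate 3, adjusted p up to 0.103). CCND1, the cyclin D of early G1, fell by 0.59 (adjusted p = 0.00341), a call lost with scaling to the median of all probes (0.151). CCNE1 fell by 0.38 with the probe used, while its other probe gave 0.24, and this call was lost under 11 of 18 other settings, including without any 1 of the 6 wild-type treated arrays (adjusted p up to 0.859).

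Among p53 targets, 4 of 22 tested rose and 1 fell between the times (22.7% called, against 13.4% of all genes, median 0.09). With 1 treated array left out, 2 or 3 rose and 0 or 1 fell: 2 rose without any 4 h replicate or 8 h replicate 1 or 2, and none fell without 4 h replicate 1 or 2 or 8 h replicate 1 or 3. GADD45A, a stress-induced growth arrest protein, was at 8.64, 8.68 and 8.89 untreated, 10.40, 10.53 and 10.27 at 4 h and 11.57, 11.81 and 11.54 at 8 h. It stepped up at both times, by 1.24 ± 0.12 after 4 h (2.37-fold, adjusted p = 1.27e-05). CDKN1A, the cell cycle inhibitor that p53 induces, was at 10.07, 10.00 and 10.14 at 4 h and 10.13, 10.08 and 10.32 at 8 h, all above 8.87, 9.06 and 8.98 untreated. Its treated arrays overlapped, and the 0.11 between them was not called (95% interval -0.18 to 0.39, adjusted p = 0.679). AEN, an apoptosis-linked nuclease, and PPM1D, the phosphatase that switches p53 signalling off, rose by 0.63 (adjusted p = 0.0256) and 0.62 (adjusted p = 0.0111). The first call was lost without 4 h replicate 2 or 3 or 8 h replicate 1 or 2 (up to 0.113), the other without 4 h replicate 1 or 8 h replicate 3 (up to 0.0547). HEK293 cells carry adenoviral genes whose products bind p53 and the retinoblastoma protein, which limits them as a model of both pathways.

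Of 21 apoptosis regulators, 2 rose and 2 fell (19% called, against 13.4% of all genes), with BIRC5 up by 0.91 ± 0.13 (adjusted p = 0.000485) and the death promoter BAX down to a log2 difference of -0.47 (adjusted p = 0.0218, lost under 7 of 18 other settings, including without 4 h replicate 1 or 2 or 8 h replicate 1 or 3, up to 0.489). With 1 treated array left out, 1 or 2 of these regulators rose (1 without 4 h replicate 1 or 2 or 8 h replicate 1 or 3) and 0 or 1 fell, and with scaling to the median of all probes none fell. Of 21 genes of DNA break repair, 4 rose and 1 fell (23.8% called), but 1 rose without any 4 h replicate or 8 h replicate 1 or 2. EXO1, a nuclease that resects breaks, rose by 0.70 ± 0.10 (adjusted p = 0.000485), BRCA1 by 0.57 (adjusted p = 0.0442, lost without any 4 h replicate or 8 h replicate 1 or 2, up to 0.173), and XRCC6, the Ku70 end-binding protein, fell by 0.59 (adjusted p = 0.00386). Of 8 topoisomerases and their repair enzymes, 1 was called (12.5%), TOP3A, which rose by 0.53 (adjusted p = 0.0351). That call was lost when its probes were averaged, on the 9 wild-type arrays alone, and without 4 h or 8 h replicate 1 or 2 (up to 0.156).

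In the Notch pathway 7 of 20 tested genes fell and none rose (35% called, against 13.4% of all genes, median -0.46, beside 0.01 for all genes). With 1 treated array left out 5 to 7 fell. HEY1, a transcriptional repressor that Notch induces, was at 11.21, 11.16 and 11.18 untreated, 10.85, 10.93 and 10.84 at 4 h and 9.47, 9.53 and 9.51 at 8 h. The drop after 4 h was far larger than the spread of any group, with a log2 difference of -1.37 ± 0.10 (adjusted p = 2.52e-06). DLL1, a Notch ligand, was at 9.26, 9.25 and 9.35 untreated, 7.98, 8.07 and 8.13 at 4 h and 7.12, 6.90 and 7.12 at 8 h, and fell again by 1.01 after 4 h (adjusted p = 3.22e-05). HES5, another Notch-induced repressor, was 1.64 below untreated at 4 h and its further difference of -0.67 was not called (adjusted p = 0.0541). NRARP, a feedback inhibitor, fell by 1.09 with 1 probe, while its other probe gave -0.03.

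Targets of BMP and TGF-beta signals gave 3 falls and 1 rise among 14 tested (28.6% called, against 13.4% of all genes, median -0.32). With 1 treated array left out, 2 to 4 fell, and none rose without 8 h replicate 1 or with scaling to the probes detected on all arrays. ID2, which blocks basic helix-loop-helix factors, was at 10.70, 10.64 and 10.48 untreated, 9.55, 9.81 and 9.85 at 4 h and 8.19, 8.36 and 8.47 at 8 h. It went down at each step, by 1.39 ± 0.12 after 4 h (log2 difference -1.39, adjusted p = 3.86e-06). ID4, a related factor, fell by 0.95 (adjusted p = 0.00693). SKIL, a repressor of SMAD signalling, was detected on no array at 4 h and on all 3 at 8 h, at least 1.39-fold higher (adjusted p = 0.0121). That call was lost without 8 h replicate 1 and with scaling to the probes detected on all arrays (up to 0.0607). CCN2, a matrix protein of the CCN family, fell by 1.46 ± 0.15 (adjusted p = 1.46e-05), ROBO1, an axon guidance receptor, by 1.39 ± 0.17 (adjusted p = 0.000110), and KLF13, a Kruppel-like factor, by 1.36 ± 0.16 (adjusted p = 5.75e-05). ADAMTS1, a secreted metalloprotease, was transient, called higher at 4 h (0.90) and then lower by 1.30 (adjusted p = 0.000179). Of 17 HOX genes, 5 fell and none rose (29.4% called, against 13.4% of all genes, median -0.28), led by HOXB8 with a fall of 0.90 (adjusted p = 0.00193). The 5 became 2 without 4 h replicate 1 or 3 or 8 h replicate 1 or 2, 3 without 4 h replicate 2, and 1 with scaling to the median of all probes.

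GAS1, a membrane protein that binds Hedgehog ligands, had the largest fall of the 12055 tested genes. It was at 11.83, 11.82 and 11.83 untreated, 11.31, 11.41 and 11.53 at 4 h and 9.23, 9.43 and 9.79 at 8 h, and the log2 difference between the times was -1.94 ± 0.15 (to 0.261 of the 4 h level, adjusted p = 2.52e-06), with -2.05 from its other probe. MT1X, a metal-binding metallothionein, was at 9.70, 9.42 and 9.81 at 4 h and 8.24, 8.00 and 8.04 at 8 h. It had been at 10.00, 9.98 and 9.95 untreated, and its log2 difference after 4 h was -1.55 ± 0.16 (adjusted p = 2.20e-05). Of 6 tested genes of the metallothionein list, 3 fell and none rose (50% called, against 13.4% of all genes, median -0.50). With scaling to the median of all probes 1 fell. Metallothionein genes are near-identical in sequence, so their probes may read more than 1 of them. The promoters of GAS1 (chr9:86947457-86947756, minus strand) and MT1X (chr16:56682220-56682519, plus strand), the late lower genes of largest change, are given with the same spellings in capitals.
GAS1: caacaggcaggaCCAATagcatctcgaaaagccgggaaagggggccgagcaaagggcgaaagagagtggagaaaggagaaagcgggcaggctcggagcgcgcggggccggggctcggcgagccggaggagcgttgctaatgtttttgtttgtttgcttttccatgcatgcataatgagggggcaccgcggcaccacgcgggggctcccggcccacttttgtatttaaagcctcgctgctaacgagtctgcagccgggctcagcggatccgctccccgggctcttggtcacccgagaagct
MT1X: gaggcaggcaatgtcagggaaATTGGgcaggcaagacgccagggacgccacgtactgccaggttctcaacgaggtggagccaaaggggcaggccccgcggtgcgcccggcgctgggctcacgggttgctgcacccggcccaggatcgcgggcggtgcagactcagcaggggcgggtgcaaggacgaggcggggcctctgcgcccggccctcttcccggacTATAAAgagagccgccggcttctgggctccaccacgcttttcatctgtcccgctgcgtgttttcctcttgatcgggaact
Neither window held the kB, AP-1 or CHR spelling. The CHR spelling occurred in 5.18% of the 328 late lower promoters and in 12.8% of the 485 late higher ones, against 10.1% of all tested genes.

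Of 14 tested cholesterol genes, 4 fell and none rose (28.6% called, against 13.4% of all genes, median -0.36), but 1 fell with scaling to the median of all probes. INSIG1, the membrane protein that restrains sterol synthesis, was at 11.56, 11.65 and 11.60 untreated, 11.13, 11.33 and 11.19 at 4 h and 9.86, 9.86 and 10.02 at 8 h. Every 8 h array was below every other, with a log2 difference of -1.30 ± 0.13 (adjusted p = 1.27e-05). LSS, lanosterol synthase, fell by 0.72 (adjusted p = 0.00532), a call lost with scaling to the median of all probes. Of 18 genes of the unfolded protein and integrated stress responses, 4 fell and none rose (22.2% called, against 13.4% of all genes, median 0.04). The 4 became 1 without 8 h replicate 2, 2 without 4 h replicate 1 or 2 or 8 h replicate 1 or 3, and with scaling to the median of all probes none fell and 1 rose. Among them HSPA5, the endoplasmic reticulum chaperone BiP, fell by 0.76 (adjusted p = 0.0126), and STC2, a secreted glycoprotein, by 0.58 (adjusted p = 0.0169). Both calls were lost with scaling to the median of all probes, that of HSPA5 also without 4 h replicate 2 or 8 h replicate 3 (up to 0.136), and that of STC2 without 4 h replicate 1 or 8 h replicate 1 or 2 (up to 0.282). PPP1R15A, which restores translation after stress, stayed in the sustained class, at 2.36 after 4 h and 2.64 after 8 h.

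Of 18 tested transcripts that host small nucleolar RNAs, 9 rose and 1 fell (55.6% called, against 13.4% of all genes, median 0.44), and 8 of the 9 were already called higher at 4 h. SNHG17 was at 8.85, 9.40 and 8.80 untreated, 10.76, 10.54 and 10.64 at 4 h and 11.97, 12.48 and 11.90 at 8 h. SNHG15 was at 10.58, 10.45 and 10.62, then 11.78, 11.67 and 11.84, then 13.17, 13.17 and 12.90. Both stepped up at each time with no overlap, by 1.47 ± 0.18 (adjusted p = 0.000110) and 1.32 ± 0.13 (adjusted p = 1.27e-05) after 4 h. These spliced host transcripts are known to be removed by nonsense-mediated decay when they are translated. DANCR was the member that fell, by 0.71 (adjusted p = 0.00634), a call lost with scaling to the median of all probes. Among 19 SR splicing factors and their kinases, 3 rose and none fell (15.8% called, against 13.4% of all genes, median 0.35), while 7 rose with scaling to the median of all probes, 9 with the authors' normalized table, 5 with the replicate block and 2 without 4 h replicate 1. Of the 3, CLK4, a kinase of SR proteins, rose by 1.02 ± 0.24 (adjusted p = 0.0103, lost without 4 h replicate 1 at 0.0516), TRA2B, a splicing activator, by 0.58 (adjusted p = 0.00390), and SRPK2 by 0.74 with a probe that its other probes, at 0.14 and 0.39, did not match in size.

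Of 27 ribosomal protein genes limma called none in either direction (median 0.00, range -0.39 to 0.59, 2 at an unadjusted p under 0.05), and of 7 replication-dependent histone genes none (median -0.05, 1 at an unadjusted p under 0.05). Of 26 tested genes of oxidative phosphorylation 2 fell (7.69% called, against 13.4% of all genes), and none fell without any 4 h replicate or 8 h replicate 1 or 2. Of 11 housekeeping genes 2 fell (18.2% called), PGK1 by 0.60 (adjusted p = 0.00490) and TFRC by 0.46 (adjusted p = 0.0196). Both calls were lost with scaling to the median of all probes, and that of TFRC also without 4 h replicate 2 or 3 or 8 h replicate 1 or 2 (up to 0.113). Of 17 interferon-stimulated genes 1 rose and 2 fell (17.6% called), with 1 fall without 8 h replicate 2. These were ISG20, an RNA exonuclease, up by 0.83 (adjusted p = 0.00641), and IFI6 and IFITM1, down with log2 differences of -0.72 and -0.58, calls that were lost with scaling to the median of all probes. The lists' medians shift with the scaling: that of the ribosomal genes was 0.00 with scaling to the median of all probes and -0.26 with scaling to the probes detected on all arrays. The medians of the subunits and inhibitors, adhesion and other targets, G2/M, G1/S, host transcripts, Notch, BMP and TGF-beta, cholesterol, metallothionein and HOX lists kept their sign under both.

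**Figure D3:**
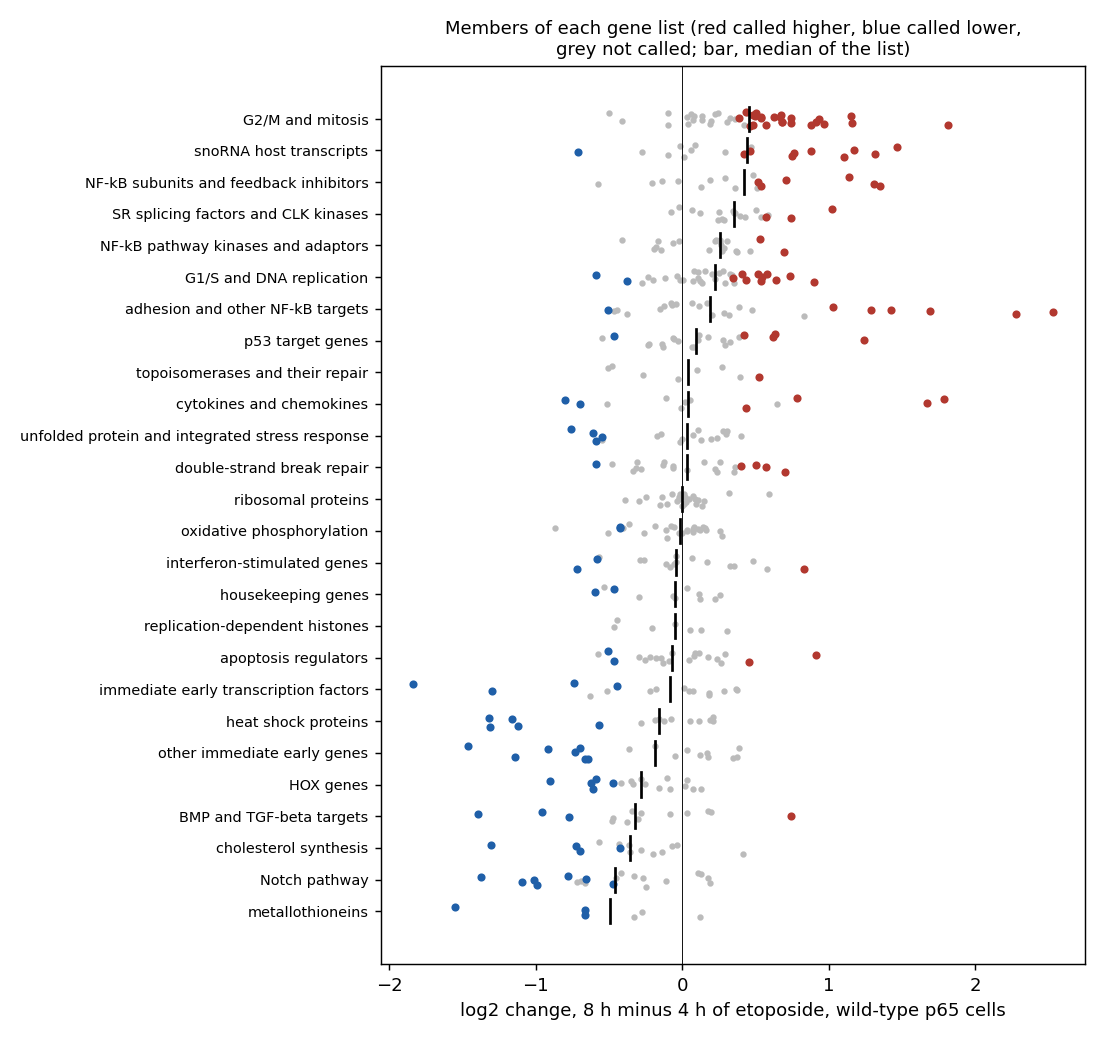
Log2 change between 4 h and 8 h of etoposide for each tested member of 26 gene lists in wild-type p65 cells, with lists ordered by their median (black bar). Red points were called higher and blue points lower by limma, and grey points were not called. G2/M genes and small nucleolar RNA hosts have medians of 0.45 and 0.44, and the Notch and metallothionein lists -0.46 and -0.50.

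A gene could stay changed with little movement after 4 h. JARID2, a cofactor of Polycomb, was at 9.46, 9.26 and 9.19 untreated, 7.58, 7.38 and 7.54 at 4 h and 7.31, 7.59 and 7.54 at 8 h. Its treated arrays overlapped, and the difference between the times was -0.02 (95% interval -0.34 to 0.29). INHBE, an inhibin subunit gene induced by the integrated stress response, had a change of -2.29 at 4 h and -1.98 at 8 h, with detection on 1 of 3 arrays at 4 h. Its difference of 0.31 between the times was not called (limma adjusted p = 0.589). At so low a signal, movement after 4 h cannot be judged. BCL11A, a transcriptional repressor, moved on in contrast, from -1.50 at 4 h to -2.55 at 8 h, with 8.81, 9.04 and 9.07 untreated, 7.48, 7.35 and 7.57 at 4 h and 6.27, 6.41 and 6.60 at 8 h (log2 difference -1.04 ± 0.15, adjusted p = 0.000335).

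The same contrast in the cells with p65 S547A, in which the serine is replaced by alanine, shares no array with the one described and was used to ask whether the timing belonged to the wild-type line. There 998 genes rose (8.28%) and 859 fell (7.13%) between 4 h and 8 h. Of the 976 genes that rose in wild-type p65 cells, 962 had the same sign in S547A cells and 622 were called in the same direction. Of the 641 that fell, 627 had the same sign and 417 were called in the same direction. In all, 1 gene was called in opposite directions. The share of all tested genes with the same sign in both lines was not counted, so these counts have no background beside them. The arrays of both lines were also normalized together, and 1 estimate of the spread per gene served both contrasts. Over all genes the log2 changes of the lines correlated with Pearson's r of 0.70 and Spearman's rho of 0.65, as a description across genes, which are not independent replicates.

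The difference between the lines in the change from 4 h to 8 h was tested directly, and limma called 0 of 12055 genes (0%). An unadjusted p under 0.05 was held by 505 genes, no more than that threshold would pass among 12055 genes without any difference. The 95% interval of that difference, before adjustment, had a median half-width of 0.54 on the log2 scale with 3 arrays per group. A call needed an adjusted p under 0.05 over 12055 genes, so differences above as well as below that size could go uncalled. TNFRSF9 rose by 1.85 in S547A cells beside 2.53 in wild-type cells, a difference of -0.68 (95% interval -1.51 to 0.14). EGR1 had changes of -1.83 in both lines, with a difference of 0.01 (95% interval -0.69 to 0.70). For CENPA the changes were 1.73 and 1.81 (difference -0.09, interval -0.51 to 0.34), and for GAS1 -1.78 and -1.94 (difference 0.16, interval -0.31 to 0.62). SH2D3C (difference -0.66, interval -1.22 to -0.11), VCAM1 (0.73, interval 0.22 to 1.24) and ROBO1 (0.63, interval 0.12 to 1.15) had intervals that did not include 0 before adjustment, and none of them was called. These genes were named for their changes in wild-type cells, so their differences from the other line do not show that the lines differ.

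**Figure D4:**
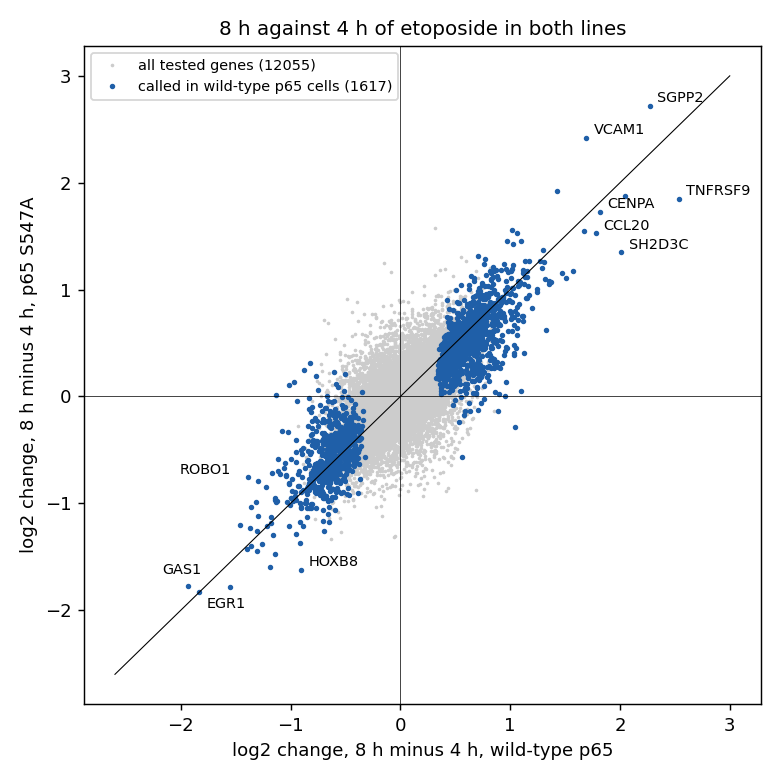
Log2 change between 4 h and 8 h of etoposide in wild-type p65 cells (horizontal) against that in p65 S547A cells (vertical) for all 12055 tested genes (grey) and the 1617 called in wild-type cells (blue). The diagonal marks equal change, and most called genes lie in the lower left and upper right corners.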

How the data were processed

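Total RNA of 18 samples was measured on Illumina bead arrays. The submitters' processing notes name GenomeStudio without a version. Per the file headers, the deposited table pairs each probe's linear intensity with a detection p-value set against the background of its array. As judged from the values, no background was subtracted and arrays were not normalized to each other. A second deposited table holds intensities that the authors had normalized, and it served as an alternative. Bead arrays give no read depth, so their number limits precision.

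The intensities were background-corrected by normexp on controls inferred from the detection p-values, with an offset of 16, then quantile-normalized and expressed as log2 (neqc in limma 3.58.1, R 4.3.3, with statmod 1.5.0). Probes detected at p under 0.05 on at least 3 of the 18 arrays were kept. Where a gene had several kept probes (3140 genes), the brightest on average was used, and the others are quoted where they disagree. Of 47231 probes, 30112 carried 1 symbol, 8 several and 17111 none, in an annotation that can be old, and 30073 were found in the RefSeq table of GRCh38.p14, from which the promoters also come. One limma model with 6 groups and no covariate (12 residual degrees of freedom) gave all comparisons, with Benjamini-Hochberg adjustment over all 12055 genes for each. The model was run on simulated log2 levels with independent normal noise. Such data cannot check the scaling between arrays or any dependence between genes. The threshold for a call was an adjusted p of 0.05. A gene not detected on any array of a group has only a bound there: the fold is the other group's mean over the lowest detected signal per array or the gene's own signal, whichever was higher.

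Genes and lists were chosen with earlier results of these data known. The genes named are RELA, the 12 of largest change in each direction whose arrays did not overlap, at most 4 of each time class, at most 3 called members of a list in each direction, and 16 others chosen by name. Further examples singled out for a count (the genes that crossed the untreated level) were picked after their values were seen. Promoters were taken in order of change within the transient higher, late higher and late lower classes. Alternatives were other scalings, background corrections and filters, averaged probes, fewer arrays, a replicate block and leaving out each replicate.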

Additional observations from a re-analysis of the deposited data

How the results depend on the processing

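No called difference of a named gene changed sign under any alternative. Over 109 named genes, 1758 of 1960 recomputed comparisons kept their direction and side of the threshold, 196 lost the call and 6 gained it. The medians of 11 of 26 gene lists did turn sign under at least 1 of 11 settings, those of the immediate early and apoptosis lists among them, and the share of calls that were higher ranged from 46.0% to 92.6% over the scalings. Scaling to the median of all probes raised the genes called higher between 4 h and 8 h to 1640 and lowered those called lower to 131. Under it, calls at 4 h numbered 267 higher, calls lower at 8 h 947, and calls lower in S547A cells 342. Its classes held 6 transient higher, 91 transient lower, 3 partly returned higher, 126 sustained higher, 118 growing higher, 14 growing lower, 1047 late higher and 81 late lower genes. Scaling to the median of probes detected on all arrays, chosen after seeing the data, gave 988 lower and 68 transient higher. A fit on the 9 wild-type arrays gave 5 partly returned higher. The cause of these shifts was not tested.

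Leaving out 1 replicate at a time gave 558 to 693 higher and 378 to 432 lower between 4 h and 8 h, 314 to 398 lower at 4 h, 28 to 35 transient higher, 28 to 41 transient lower, 2 to 7 and 5 to 8 partly returned higher and lower, 199 to 287 sustained lower, 122 to 170 growing higher, 27 to 55 growing lower, 350 to 551 late higher and 249 to 374 late lower. The lowest counts between the times came without 4 h replicate 1. With the replicate number as a block, 1061 genes were higher and 752 lower between 4 h and 8 h, and the line difference again gave 0 calls. Same-numbered 4 h and 8 h arrays had deviations that correlated at 0.07, 0.03 and 0.21, and differently numbered ones at -0.15 to 0.08. The 4 h replicates 1 and 2 each correlated best with an 8 h array of another number. These values do not settle whether the numbers mark pairs. The submitters describe no block, so the main fit had none. Low signal limits genes that were detected on few arrays, such as VCAM1 at 4 h and FOS.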

Other observations

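Gene families that share the first letters of their symbols were looked at after the lists had been described. Those named here were picked, after their values were seen, from all families with at least 20 tested genes. Some of their members are also on the lists above. Small nucleolar RNAs were counted beside the rises of their host transcripts: of 71 tested SNORD entries 10 fell between 4 h and 8 h and none rose (median -0.38), and of 57 SNORA entries 8 fell and none rose (median -0.29), against 5.32% of all tested genes that fell. With 1 treated array left out, 5 to 10 SNORD entries fell (5 without 4 h replicate 1, 6 without 8 h replicate 1 or 3) and 3 to 7 SNORA entries (3 without 4 h replicate 2 or 8 h replicate 1, 4 without 8 h replicate 2, 5 without 4 h replicate 1). With scaling to the probes detected on all arrays 23 SNORD entries fell. The medians stayed below 0 with scaling to the median of all probes, at -0.22 and -0.16, and with the authors' normalized table, at -0.17 and -0.15. With scaling to the median of all probes 1 SNORD entry was called higher and 5 lower. A probe for such an entry may also read the intron of a host transcript, which was not tested.

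Kinesin genes (KIF) rose in 11 of 26 cases and fell in none (median 0.43), and genes of centrosomal proteins (CEP) rose in 9 of 31 and fell in 1 (median 0.30), against 8.1% of all genes that rose. Of the KIF genes that rose, KIF11, KIF14, KIF20B, KIF23 and KIF2C were already counted in the G2/M list. KIF genes that rose numbered 7 without 4 h or 8 h replicate 1, and CEP genes 5 without any 4 h replicate or 8 h replicate 2 or 3. Zinc-finger genes (ZNF) rose in 47 of 356 cases and fell in 5 between the times, with 81 called higher and 4 lower at 4 h against untreated, and 156 higher and 11 lower at 8 h. Of the ZNF genes 14.6% were called between the times, near the 13.4% of all genes, and over all genes 8.1% rose, 5.32% fell, 6.25% were higher at 4 h and 16.5% at 8 h. Between the times 31 ZNF genes rose without 4 h replicate 1 or 8 h replicate 2, and 1 to 3 fell with any 1 treated array left out. Their median between the times was 0.14, beside 0.01 for all genes. It was 0.30 with scaling to the median of all probes and 0.04 with scaling to the probes detected on all arrays. Genes for ATPases and ATP synthase subunits (ATP) fell in 9 of 59 cases and rose in 2 (18.6% called, median -0.05), 4 to 6 fell with 1 treated array left out (4 without 8 h replicate 2, 5 without 4 h replicate 3 or 8 h replicate 1), and with scaling to the median of all probes 1 fell and 3 rose.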
